A study of Mus musculus with 12 samples.

Results

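Transcripts that mark Purkinje cells, the output neurons of the cerebellar cortex, were followed in neonatal mouse samples titled brain, hindbrain and spinal cord. The 9 genes considered were Pcp2, Pcp4, Calb1, Car8, Itpr1, Rora, Foxp2, Skor2 and Pvalb. A probe set was used for a gene when the platform annotation gave that gene as its only symbol. Of the 9 genes, 7 had such a probe set, with 27 probe sets between them, out of 45037 probe sets and 18193 genes in all. Itpr1 and Skor2 were not analysed here. Each gene was read from its probe set with the highest mean, and the others served as a check. All 7 genes passed the filter on dim probe sets, in a table of 12600 tested genes.

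The samples fell into 4 groups of 3: NR3B knockout (KO) mice at postnatal day 5 (P5), wild-type (WT) mice at P5, KO mice at P0 and WT mice at P0. NR3B is read here as the protein name of Grin3b, which encodes an NMDA receptor subunit. Total RNA was taken, and the tissue is named inconsistently by the labels: simply brain in places, and elsewhere also spinal cord and hindbrain. The strain, the deleted part of the gene, whether samples are separate animals and the share of each tissue are not given in the sources used here, so every p-value reflects how far these samples varied, and part of that variation could be technical.

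Each probe set reads a transcript with several short oligonucleotides, and its signal is given on a linear scale. The 12 arrays had median signals of 607.1 to 737.1. The Grin3b probe set, at the 13th percentile of brightness, read 39.73 to 48.47 in P5 KO samples, against 154.8 to 272.9 in P5 WT samples. At P0 it read 31.38 to 96.91 in KO samples, against 197.6 to 352.6 in WT samples. P0 samples varied more than P5 samples: the pooled within-group SD was larger at P0 in 82% of tested genes and in all 7 Purkinje cell genes, although not within KO for Calb1 and Rora. Among 12 forebrain neuron markers, 10 had a probe set and 6 of these lay under the filter, including the cortical genes Emx1 and Tbr1. The other 4, Neurod6, Tcf7l2, Gbx2 and Lhx9, passed the filter, with group means of 3451 to 4096 for Neurod6. All 11 hindbrain and spinal position genes with a probe set passed it too.

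Purkinje cells are born before birth and in the first postnatal days settle into a single layer, grow dendrites and receive their first synapses. They handle large calcium signals through the IP3 receptor and hold high levels of calcium-binding proteins. Rora, the gene mutated in the staggerer mouse, encodes a nuclear receptor needed for their maturation, and Pcp2 is among the genes most restricted to them in brain. Most of the other genes are also expressed elsewhere: Calb1 and Pvalb in other neurons, Pcp4 in forebrain and hindbrain neurons, Rora in thalamus, and Foxp2 in several brain regions.

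Promoter sequences from RefSeq (build GRCm38.p6) were at hand for 4 of the 7 genes, in 8 windows from 250 bases before to 50 bases after a listed start. Pcp2 had several starts and is shown because it changed most with age, and Pcp4 is shown beside it because its window was the only one of another gene that held the letters searched. Capitals mark the letters AGGTCA on either strand, the core site that nuclear receptors such as the Rora product bind. The Pcp2 windows are at chr8:3625498-3625797 and chr8:3624987-3625286 (both minus strand) and the Pcp4 window is at chr16:96467356-96467655 (plus strand).
Pcp2 upstream start: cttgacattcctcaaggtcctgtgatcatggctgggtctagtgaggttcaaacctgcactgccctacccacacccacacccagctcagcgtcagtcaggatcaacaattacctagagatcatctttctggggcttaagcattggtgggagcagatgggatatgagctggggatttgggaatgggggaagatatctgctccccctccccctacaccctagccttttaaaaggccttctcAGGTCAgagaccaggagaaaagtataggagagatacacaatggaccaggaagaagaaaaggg
Pcp2 downstream start: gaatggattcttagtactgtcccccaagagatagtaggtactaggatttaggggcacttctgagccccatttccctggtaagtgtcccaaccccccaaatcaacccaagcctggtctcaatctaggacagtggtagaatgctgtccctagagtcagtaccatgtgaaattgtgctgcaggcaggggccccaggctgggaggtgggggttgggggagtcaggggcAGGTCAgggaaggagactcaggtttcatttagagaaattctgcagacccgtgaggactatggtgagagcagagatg
Pcp4: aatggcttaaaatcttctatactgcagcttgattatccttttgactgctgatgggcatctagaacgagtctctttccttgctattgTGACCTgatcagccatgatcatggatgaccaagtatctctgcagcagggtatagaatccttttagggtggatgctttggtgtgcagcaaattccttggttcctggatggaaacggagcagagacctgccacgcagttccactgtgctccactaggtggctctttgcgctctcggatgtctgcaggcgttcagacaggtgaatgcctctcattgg
AGGTCA occurred in 4 of the 8 windows, against 16.3% of all 32851 windows of that length. Of these, 3 were Pcp2 windows, 2 of which overlap and hold the same match, and the other was that of Pcp4. With -1 as the base before the start, the leftmost letter of the match lay at -12 in the upstream Pcp2 window, at -26 in the downstream one and at -164, on the opposite strand, in Pcp4. The longer form TAGGTCA, which contains AGGTCA, was in 0 of the 8 windows and in 2.61% of all. TATAAA was in 1 window, at a further Pcp2 start, against 13.6% of all. The Rora and Pvalb windows held none of these letters.

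Between P0 and P5 most Purkinje cell transcripts rose in both genotypes. The rise was measured as a log2 difference, P5 minus P0, with limma over all 12600 genes and called at an adjusted p under 0.05. In KO tissue 5 of 7 genes rose (Pcp2, Calb1, Car8, Rora and Pvalb), where 5.5% of all tested genes were called higher. In WT tissue 6 of 7 rose, the same genes and Pcp4, where 10.8% of all genes were called higher. None of the 7 fell in either genotype, where limma called 4.95% of all genes lower in KO and 8.52% in WT. The median log2 difference of the 7 genes was 1.13 in KO and 1.51 in WT, beside -0.028 and 0.029 over all tested genes. The samples of the ages did not overlap, after normalization, for the same 5 genes in KO and the same 6 in WT. Over all tested genes 14.6% in KO and 18.4% in WT lay higher at P5 without overlap. In a bulk sample, fewer cells of a type and less RNA per cell cannot be told apart.

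Pcp2, a small protein that binds inhibitory G protein subunits, changed most. Its signal was 11250, 12100 and 16400 in P5 KO samples, and 350, 1817 and 366.6 in P0 KO samples. In WT it was 14450, 14100 and 12140 at P5, against 258.7, 442.1 and 240.2 at P0. Every P5 sample was thus far above every P0 sample, and KO sample 2 stood above the other P0 samples. The log2 difference was 4.31 in KO (SE 0.46; 19.8-fold; adjusted p = 9.01e-05) and 5.43 in WT (SE 0.46; 43.0-fold; adjusted p = 1.34e-05). By size of rise Pcp2 ranked 4 of 12600 genes in KO and 2 in WT. The size of these folds is uncertain because the P0 level was dim: 1 of 3 P0 KO samples and 2 of 3 P0 WT samples lay under the filter level of 8.72 on the log2 scale. In KO, Pcp2 stood at percentiles 93 to 95.5 of its array at P5 and 33.6 to 67.9 at P0. A second Pcp2 probe set rose by 4.40 in KO and 3.57 in WT, and the remaining, dim probe set stood at 1.11 in KO and 0.89 in WT and was not called.

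Pcp4, a small protein that regulates calmodulin, read high at both ages. Its signal was 29810, 27340 and 35360 in P5 KO samples, and 15830, 31280 and 36350 in P0 KO samples, which overlapped. In WT it was 38890, 33670 and 29660 at P5, against 11400, 30830 and 15340 at P0, where P0 WT sample 2 lay above the lowest P5 WT sample as deposited and just below it after normalization. The log2 difference was 0.28 in KO (95% interval -0.36 to 0.92; adjusted p = 0.617) and 0.99 in WT (SE 0.30; adjusted p = 0.0339). The WT call was lost at adjusted p = 0.0646 to 0.143 without P0 WT sample 1 or 3 or any of the 3 P5 WT samples. It was also lost with the deposited scaling (0.0595), with a spread model that ignores intensity (0.0518) and with a fit of the compared groups alone (0.0598), and held in 16 of 24 alternatives. Whether Pcp4 changed differently with age in the genotypes is given by the interaction, -0.71 (95% interval -1.61 to 0.20; adjusted p = 0.742).

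**Figure D1:**
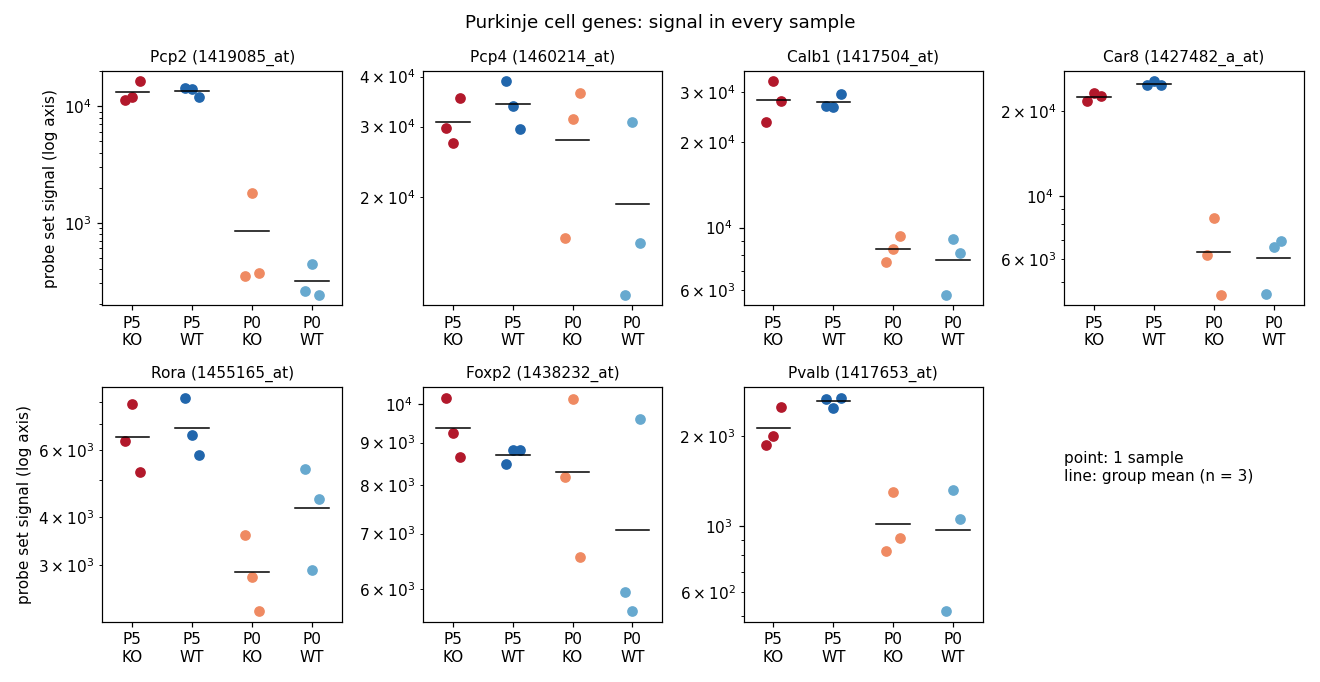
Signal of the chosen probe set of each Purkinje cell gene in every sample, on a log axis, with 1 point per sample and a line at the mean of 3. The ages lie apart for Pcp2, Calb1, Car8 and Pvalb and overlap for Pcp4, Rora and Foxp2 over both genotypes.

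Calb1 encodes calbindin, a calcium buffer. Its signal was 23620, 32810 and 27920 in P5 KO samples, and 7547, 8396 and 9356 in P0 KO samples. In WT it was 26870, 26560 and 29610 at P5, against 5796, 9098 and 8140 at P0. The ages were well apart in both genotypes. Calb1 differed by log2 1.72 in KO (SE 0.17; 3.30-fold; adjusted p = 4.26e-05) and 1.91 in WT (SE 0.17; 3.75-fold; adjusted p = 1.63e-05). Its 4 probe sets were all above 0, from 1.72 to 2.59 in KO and from 0.93 to 2.55 in WT.

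Car8, a carbonic anhydrase-related protein that lacks the enzyme's activity and binds the IP3 receptor, rose by a similar size. Its signal was 21660, 23110 and 22490 in P5 KO samples, and 6215, 8425 and 4510 in P0 KO samples. In WT it was 24660, 25380 and 24680 at P5, against 4538, 6636 and 6976 at P0. Samples were close together at P5, with a pooled SD on the log2 scale of 0.035, and wider at P0, with 0.405. On the log2 scale Car8 differed by 1.83 in KO (SE 0.20; 3.56-fold; adjusted p = 0.000104) and 2.11 in WT (SE 0.20; 4.31-fold; adjusted p = 2.51e-05). Its 3 probe sets ranged from 0.78 to 1.83 in KO and from 1.27 to 2.11 in WT.

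Pvalb encodes parvalbumin, another calcium buffer, which is known to appear in Purkinje cells after calbindin. Its only probe set read 1866, 1990 and 2493 in P5 KO samples, and 825.2, 1302 and 913.1 in P0 KO samples. In WT the signal was 2659, 2473 and 2682 at P5, against 520.5, 1323 and 1056 at P0. The Pvalb difference on the log2 scale was 1.02 in KO (SE 0.30; 2.02-fold; adjusted p = 0.0429) and 1.51 in WT (SE 0.30; 2.84-fold; adjusted p = 0.00419). The KO call was close to the threshold and was lost at adjusted p = 0.0529 to 0.16 without P0 WT sample 3, P0 KO sample 1 or 3 or any of the 6 P5 samples. It was also lost with no filter (0.0597), a spread model that ignores intensity (0.0559), the mean of all probe sets (0.0503) and the second-brightest probe set (0.057), the last pair through the other genes since Pvalb has 1 probe set, and held in 11 of 24 alternatives. The WT call held without any sample in turn.

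Of the transcription factors, Rora rose and Foxp2 was not called. Rora read 6318, 7913 and 5258 in P5 KO samples, and 3596, 2789 and 2279 in P0 KO samples. In WT it read 8216, 6546 and 5818 at P5, against 5336, 2912 and 4478 at P0, with a narrow gap between the ages. The log2 difference was 1.13 in KO (SE 0.22; 2.19-fold; adjusted p = 0.00511) and 0.73 in WT (SE 0.22; 1.66-fold; adjusted p = 0.0332). The WT call was lost at adjusted p = 0.06 to 0.135 without P0 WT sample 2 or 3 or P5 WT sample 1 or 2, and at 0.0835 with the mean of all its probe sets (a difference of 0.45), 0.0655 with the compared groups alone and 0.0948 without P0 WT samples 1 and 2. It held in 17 of 24 alternatives. Of its 9 probe sets, 7 were above 0 in KO and 9 in WT, from -0.082 to 1.25 in KO and from 0.16 to 0.92 in WT. In the fit over all probe sets, 2 of the 9 were called in KO and 1 in WT, where 2.23% and 3.28% of all probe sets were called higher.

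Foxp2, a forkhead transcription factor made by Purkinje cells from before birth, read 10190, 9241 and 8658 in P5 KO samples, and 8178, 10140 and 6561 in P0 KO samples. In WT it read 8483, 8816 and 8812 at P5, against 5962, 5654 and 9598 at P0. The ages overlapped in both genotypes. The log2 difference was 0.19 in KO (95% interval -0.22 to 0.61; adjusted p = 0.597) and 0.36 in WT (95% interval -0.054 to 0.77; adjusted p = 0.193). P0 WT sample 3 decided the WT value: without it the difference was 0.60 (adjusted p = 0.0336). That sample also read highest of its group for the forebrain markers Tcf7l2 (4011, against 626.9 and 978.6) and Lhx9 (10110, against 1805 and 1540). For the forebrain markers Neurod6 (3280) and Gbx2 (1140) it read lowest of its group. Whether its tissue content differed was not tested. The upper ends of the intervals correspond to 1.52-fold in KO and 1.71-fold in WT. Its 6 probe sets ranged from -0.074 to 0.48 in KO and from -0.16 to 0.36 in WT, with 0 called.

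**Figure D2:**
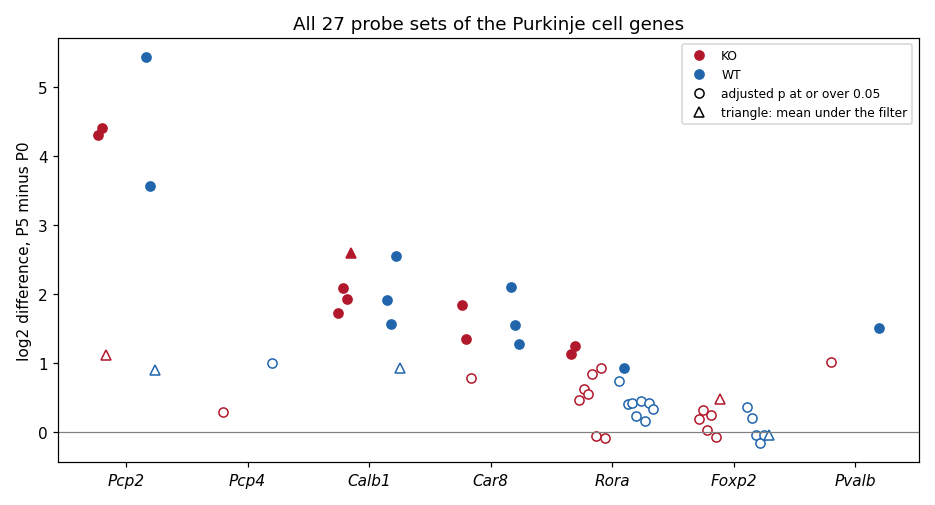
Log2 difference, P5 minus P0, of each of the 27 probe sets of the 7 genes in KO (left of each gene) and WT (right), from the fit over all probe sets. Filled symbols passed an adjusted p of 0.05 over all probe sets, 10 in KO and 10 in WT, all above 0, and triangles mark probe sets whose mean lay under the filter.

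Across all 27 probe sets, 24 were above 0 in KO and 23 in WT. The 10 called higher in each genotype compare with 2.23% of all 45037 probe sets in KO and 3.28% in WT, and the probe sets of 1 gene share its transcript. With adjustment over all probe sets, which include many dim ones, Pcp4 in WT, Pvalb in KO and the brightest Rora probe set in WT were no longer called. In the fit over genes, the calls of Pcp2, Calb1 and Car8 held in both genotypes under each of 24 alternative settings.

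No Purkinje cell gene passed the limma test between the genotypes at either age. At P5, 0 of 7 genes were called, where 0.00794% of all tested genes were. At P0, 0 of 7 were called, where 0.0238% were, and the average over both ages also gave 0 of 7, where 0.0238% were. An unadjusted p under 0.05 was reached by 0 of 7 genes at P5, by 2 of 7 at P0 (Pcp2 and Rora) and by 0 of 7 in the average, where 1.84%, 16.1% and 8.65% of all tested genes reached it.

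At P5 the KO minus WT log2 differences ran from -0.29 for Pvalb to 0.098 for Foxp2, with a median of -0.079. The narrowest 95% interval was that of Calb1, -0.38 to 0.35, and the widest that of Pcp2, -1.07 to 0.93, at a difference of -0.068. By the chosen probe sets, Car8 was the only one of the 7 whose samples did not overlap, at 21660 to 23110 in KO and 24660 to 25380 in WT. Its difference was -0.18 (95% interval -0.61 to 0.26; adjusted p = 1), and 5.26% of all tested genes lay lower in KO without overlap. The other 2 Car8 probe sets were also below 0, the lowest at -0.27. Among the probe sets not chosen, 1 of Rora, at 0.24, lay higher in KO without overlap. The spread behind these intervals is shared with the P0 samples, which varied more.

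At P0 the differences ran from -0.48 for Rora to 1.05 for Pcp2, and 6 of 7 were above 0, beside 59.1% of all tested genes. For Pcp2 the difference was 1.05 (95% interval 0.056 to 2.05; adjusted p = 0.303), and it was 0.30 without P0 KO sample 2, whose signal was 1817. Its second probe set, which read 706.9 in that sample, had a difference of -0.85 (adjusted p = 0.583 over all probe sets). Rora stood at -0.48 (95% interval -0.95 to -0.010; adjusted p = 0.308) and Pcp4 at 0.54 (95% interval -0.10 to 1.18; adjusted p = 0.359). The 9 Rora probe sets ran from -0.70 to 0.098, with 3 above 0 and 0 called. On its second-brightest probe set, at -0.61 (adjusted p = 0.369 over all probe sets), the genotypes did not overlap. A Calb1 probe set that was not chosen, at 0.45 (adjusted p = 0.41 over all probe sets), lay higher in KO without overlap. By the chosen probe sets, the P0 samples of the genotypes separated for 0 of 7 genes, where 10.2% of all tested genes did so. Without P0 WT sample 2, Pcp4 (0.90, adjusted p = 0.0201) and Rora (-0.70, adjusted p = 0.0267) were called, among 21.4% of all genes tested there.

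Markers of other cell types were also compared between KO and WT at P0, where 59.1% of all tested genes were above 0 and 0.0238% were called. All 10 meningeal and fibroblast genes were above 0, with 1 called, and their summed signal was 154300 to 189900 in KO, against 77100 to 108900 in WT. All 3 tested red blood cell genes and all 6 microglial genes were above 0, with 0 called. The summed signal of the 4 red blood cell genes with a probe set, 1 of them under the filter and not tested, was 2932 to 4503 in KO, against 1181 to 2090 in WT. That of the 6 microglial genes was 20670 to 25500 in KO, against 13880 to 20570 in WT. All 5 oligodendrocyte genes were below 0, with 0 called, at sums of 35630 to 59110 in KO and 40080 to 60380 in WT. Their part in the Purkinje cell values was not tested.

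**Figure D3:**
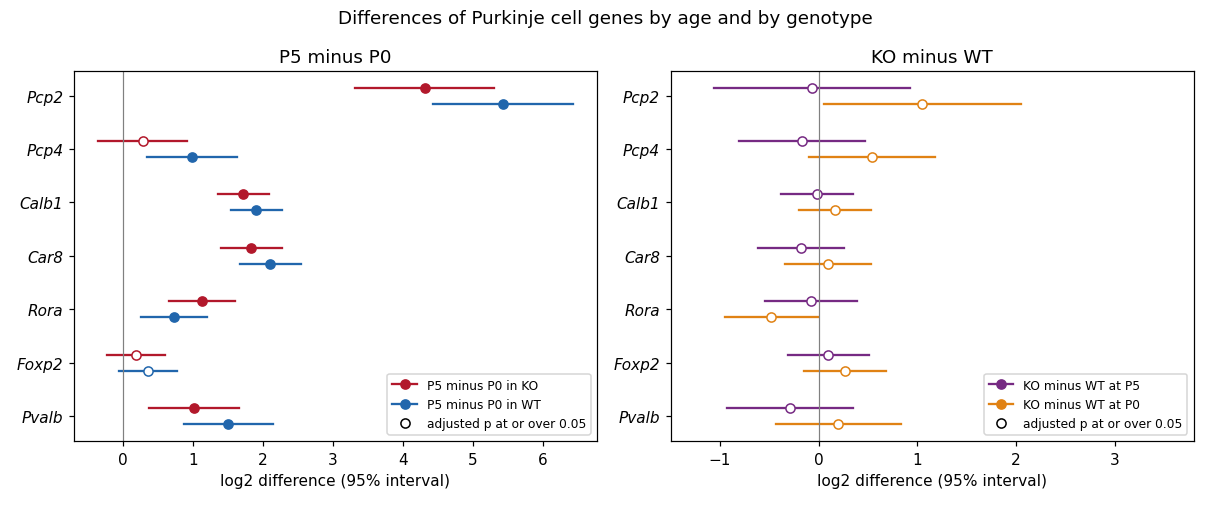
Log2 differences with 95% intervals for the 7 genes, P5 minus P0 in KO and WT (left) and KO minus WT at P5 and P0 (right). Filled points passed an adjusted p of 0.05: all of them are age differences, and no genotype difference was called, with the widest intervals those of Pcp2.

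The age difference was not shown to depend on genotype for any of the 7 genes. The interaction (the P5 genotype difference minus that at P0) gave 0 of 7 called by limma, as for 0% of all tested genes, and 0 of 7 reached an unadjusted p under 0.05, where 4.98% of all did. It was below 0 for 6 of 7 genes and 0.40 for Rora, while only 43% of all tested genes were above 0, with a median of -0.058. The largest in size was that of Pcp2, -1.12 (95% interval -2.53 to 0.29; adjusted p = 0.742), and it was -0.36 without P0 KO sample 2.

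The wider set of Purkinje cell and mGluR1 pathway genes did not rise as a whole. The mGluR1 pathway links glutamate receptors on Purkinje cell dendrites to IP3 and calcium release. Of 30 genes listed, 25 had a probe set and all 25 were tested. With age, 1 rose, 2 fell and 22 were not called in KO, and 3 rose, 4 fell and 18 were not called in WT. Over all tested genes, 5.5% were called higher and 4.95% lower in KO, and 10.8% and 8.52% in WT. The median log2 difference of the 25 was -0.007 in KO and -0.070 in WT. En2, a homeobox gene of the midbrain and cerebellum, rose by 1.08 in KO and 1.04 in WT (adjusted p = 0.0194 and 0.0161). Ebf2, a transcription factor of late-born Purkinje cells, fell by 1.04 in KO and 1.06 in WT (adjusted p = 0.000212 and 0.000151). Its signal was 1739 to 2069 in P5 KO samples and 3650 to 4074 in P0 KO samples, and 1758 to 1839 in P5 WT samples and 3386 to 4131 in P0 WT samples. Cacna1g, a T-type calcium channel, fell by 0.46 in KO (adjusted p = 0.0465) and by 0.56 in WT (adjusted p = 0.0127). In WT the calls also held Gnaq, the G protein behind mGluR1, at -0.55, Rgs8, a regulator of G protein signalling, at -0.43, and Itpka, a kinase of IP3, at 1.12 (adjusted p = 0.0138, 0.0323 and 0.0206). The remaining WT call was Inpp5a, an IP3 phosphatase, at 0.41 (adjusted p = 0.0474), named here after its value was seen. Between the genotypes 0 of 25 were called at P5, at P0 or in the average.

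Transcripts used as markers of other cerebellar cells also changed with age in the same bulk samples. Granule cell lineage genes, which mark the most numerous cerebellar neurons and their precursors, were higher at P5 in 8 of 11 tested genes in KO and 9 of 11 in WT. Of all tested genes, 5.5% were called higher in KO and 10.8% in WT. Neurod1 and Atoh1, transcription factors of the granule lineage, rose by 2.52 and 1.92 in KO and by 3.02 and 2.16 in WT. Not all followed: in WT the mean signals of Reln and Mab21l1 were 39290 and 11980 at P5, against 40160 and 13110 at P0. In KO all 11 differences were above 0. The summed signal of the 12 granule lineage genes was 150100 to 164000 in P5 KO samples and 88690 to 93970 in P0 KO samples, and 151300 to 159000 in P5 WT samples and 95140 to 102100 in P0 WT samples. Of the other cerebellar markers, 2 of 3 tested rose in both genotypes, among them Gdf10 of Bergmann glia, at 1.41 in KO and 1.62 in WT. Hindbrain and spinal position genes, nearly all of the Hox family, went the other way. In KO 8 of 11 were lower and in WT 7 of 11, against 4.95% and 8.52% of all tested genes. The sum of the position genes was 23920 to 28570 in P5 KO samples and 43510 to 61460 in P0 KO samples. In WT it was 29990 to 30500 at P5 and 40940 to 69930 at P0. How far these shifts bear on the Purkinje cell values was not tested.

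GABAergic and other calcium-binding neuron markers, which share transcripts such as calcium buffers with Purkinje cells, held 0 called genes of 6 in KO, and 1 higher and 1 lower in WT. Forebrain neuron markers held 1 lower of 4 tested in each genotype. All 5 oligodendrocyte genes rose in both genotypes, by a median of 3.25 in KO and 3.16 in WT. Meningeal genes rose in 1 of 10 in KO and 7 of 10 in WT, microglial genes in 1 of 6 and 4 of 6, and red blood cell genes in 1 of 3 and 2 of 3. Beside these counts, 5.5% of all tested genes were called higher and 4.95% lower in KO, and 10.8% and 8.52% in WT.

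**Figure D4:**
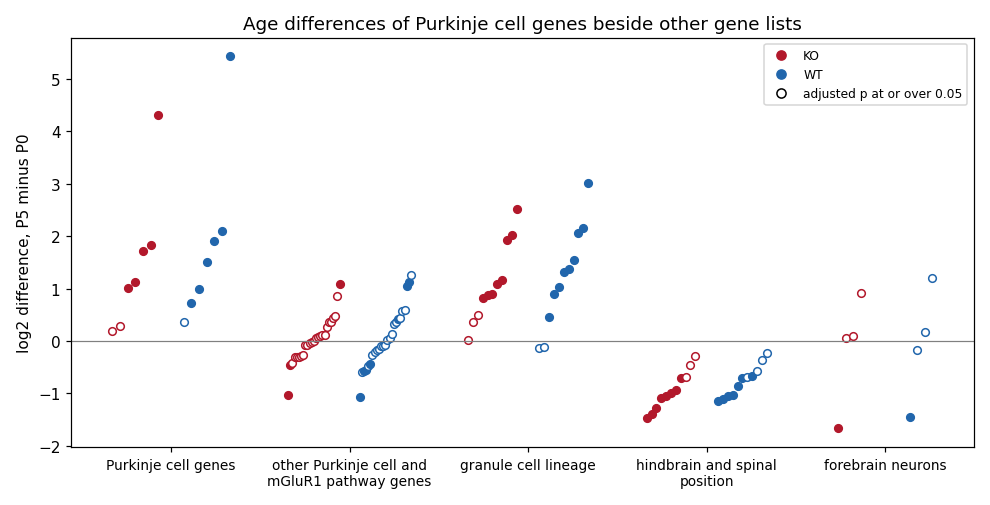
Log2 difference, P5 minus P0, of each tested gene of 5 lists, in KO (left of each list) and WT (right), sorted by size, with filled points past an adjusted p of 0.05. Purkinje cell genes and granule lineage genes lie mostly above 0, position genes below 0, and the wider Purkinje cell and pathway list is centred near 0.

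Patterns over the 12 samples were compared with that of Pcp2 by Pearson correlation of normalized log2 signals. The 5 genes most like it were Uhrf1 (r = 0.993), Mcm3 (0.990), Atad2 (0.989), Pllp (0.988) and Rrm2 (0.987). The samples fall into clusters by age, so these values mainly show which genes rose with age. Of the other Purkinje cell genes, Car8 (0.973) ranked 37 of all tested genes by likeness to Pcp2, Calb1 (0.959) ranked 80 and Pvalb (0.911) ranked 320. Rora (0.726) ranked 1489, Pcp4 (0.724) ranked 1503 and Foxp2 (0.571) ranked 2769. After each group's mean was taken out, the genes nearest to Pcp2 were Atad2 (0.949), Prkcsh (0.941), Fcrls (0.923), Gfap (0.920) and Ercc5 (0.917). The Purkinje cell genes then stood at 0.644 for Car8, 0.608 for Pvalb, 0.55 for Pcp4, 0.239 for Foxp2, 0.21 for Calb1 and -0.313 for Rora. P0 KO sample 2 lay farthest above its group for Pcp2.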

How the data were processed

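RNA from 12 samples (4 groups of 3) was read on arrays whose probe set names have the Affymetrix form. The values the authors deposited are linear intensity readings, 1 per probe set. The software behind them is a step not given in the sources used here. A trimmed mean, leaving out 2% of probe sets at each end, equalled 2500.01 on all 12 arrays, as after scaling each array to a common target.

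Signals of 45037 probe sets, without 64 control probe sets, were quantile-normalized as log2(signal + 16), since array medians spread over 0.272. That scale understates changes of dim genes. The annotation gave 34945 probe sets a single symbol, 932 several and 9160 none, and symbols were updated by gene identifier through the RefSeq table of GRCm38.p6. Each gene took its probe set with the highest mean, and genes under the 40th percentile (log2 8.72, a signal of about 406) were left out. Group means were estimated jointly from the 12 samples by limma 3.58.1 (R 4.3.3), letting the prior variance follow intensity (8 residual and 5.64 prior degrees of freedom), in 6 comparisons. Benjamini-Hochberg adjustment ran over all genes tested, and the fit was tested on simulated data. No detection calls were used, and 3 arrays per group limit the precision.

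The members and gene lists were chosen with earlier results of these data known. The text names all members, genes of the wider Purkinje list past the threshold (up to 6 per comparison) and the 5 genes most like Pcp2. Other genes were named as examples after their values were seen. Alternatives changed the scaling, pseudocount, filter, spread model, probe set choice and samples.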

Additional observations from a re-analysis of the deposited data

How the results depend on the processing

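In 24 alternatives, or 23 for the average and the interaction, the 7 genes gave 336 age values and 658 genotype or interaction values. Of the age values 2 changed sign, 28 lost a call and 1 gained a call, and the lost calls were those of Pcp4 in WT, Pvalb in KO and Rora in WT. Of the genotype and interaction values 41 changed sign, none of them past the threshold, and 8 gained a call. With array weights 3 of 7 genes were called at P0 (Pcp2 at 1.72, Pcp4 at 0.83 and Rora at -0.62), where 24.5% of all tested genes were (3083). The average then gave 1 of 7 and the interaction 2 of 7, where 16.2% and 12.1% of all were called. Without weights each of these gave 0 of 7. The weights of P0 WT samples 1, 2 and 3 were 0.36, 0.189 and 2.44, so P0 WT rests mostly on sample 3 in that setting. Leaving out each sample in turn gave 0 to 2 called at P0. The 2 came without P0 WT sample 2, where 21.4% of all genes were called. With age it gave 4 to 6 called in WT and 4 to 5 in KO. In those runs 9.54% to 38.3% of all tested genes were called in WT and 5.18% to 15.6% in KO.

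The sign changes, all of differences not called, were as follows. With the mean of all probe sets, Calb1 was at -0.38 at P0, -0.21 in the average and 0.34 in the interaction, Foxp2 at -0.041 at P0 and 0.15 in the interaction, and Pcp2 at 0.015 at P5. With the second-brightest probe set, Calb1 was at -0.43 at P0, 0.094 at P5, -0.17 in the average and 0.52 in the interaction, Car8 at -0.077 at P0, Foxp2 at 0.11 in the interaction, and Pcp2 at -0.85 at P0, -0.43 in the average and 0.83 in the interaction. Calb1 was at 0.011 at P5 with the deposited scaling, and Foxp2 at -0.029 at P0 and 0.11 in the interaction with array weights. Without P0 WT samples 1 and 2, which leaves 1 P0 WT sample assumed to vary like the others, Car8 was at -0.12 at P0 and Foxp2 at -0.22 at P0, -0.060 in the average, 0.32 in the interaction and -0.12 for P5 minus P0 in WT. Leaving out each sample in turn, Calb1 ran from -0.036 to 0.32 at P0, -0.14 to 0.081 at P5, -0.027 to 0.15 in the average and -0.34 to 0.019 in the interaction. Car8 ran from -0.13 to 0.31 at P0 and -0.15 to 0.069 in the average, Pvalb from -0.21 to 0.51 at P0 and -0.25 to 0.11 in the average, Pcp2 from -0.23 to 0.034 at P5, Rora from -0.23 to 0.065 at P5, and Pcp4 from -0.036 to 0.48 for P5 minus P0 in KO. The cause of these changes was not tested.

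The labels do not say that replicate numbers pair samples, and 5 of 18 same-numbered pairs had deviations correlated over 0.1 (from -0.128 to 0.414). With the replicate number as a block the 7 genes gave 5 calls with age in KO and 6 in WT, and 0 between the genotypes, as without it, while the calls over all genes with age in WT were 2883 against 2438.

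The counts over all genes behind the background percentages moved more. With age they were 1317 in KO and 2438 in WT, against 2101 and 6005 with array weights and 807 and 1480 with the second-brightest probe set. Without P0 WT samples 1 and 2 the KO count was 2179, and with the compared groups alone the WT count was 1315. Leaving out 1 sample gave as few as 652 in KO (without P5 KO sample 2), and in WT 1202 without P5 WT sample 1 and 4830 without P0 WT sample 2. KO minus WT at P0 gave 3 genes, against 3083 with array weights, 2693 without P0 WT sample 2 and 573 without P0 WT samples 1 and 2; at P5 it gave 1, and 0 to 6 in every alternative run. The average gave 3, against 2042, 751 and 57 in those settings, and the interaction 0, against 1527, 210 and 2.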
